A study of Homo sapiens with 24 samples.

Results

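Senescence was induced in SKBR3 cells with 4 anticancer drugs of different mechanism, and their mRNA was compared here as 2 classes. SKBR3 is an established human breast cancer line that carries an amplified HER2 gene. The DNA-damaging class held 3 libraries each of cells given bleomycin (10 µmol/L), a glycopeptide that cuts DNA, and doxorubicin (10 nmol/L), an anthracycline that traps topoisomerase II on DNA. The kinase inhibitor class held 3 libraries each of cells given palbociclib (1 µmol/L; written Palboclib in the labels), which blocks CDK4 and CDK6, and alisertib (500 nmol/L), which blocks Aurora kinase A. By the labels, these drug-treated cells were refed on day 3 and collected on day 7. The 12 libraries were taken from a series of 24, which also holds untreated cells of day 0 and day 7 and cells given ND-646 or TVB-3166. Untreated day-7 cells (n = 3) served as the common reference. The labels name no refeeding for them, so drug and refeeding cannot be told apart in comparisons with these cells. All groups were the same cell line, and the study's methods state independent experiments for its cell-based work in general without naming these libraries, so p-values measure the spread between these libraries, which may be technical.

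Cells that stop dividing for good after therapy keep an active metabolism and often secrete cytokines, growth factors and proteases, a programme driven in part by the transcription factor NF-kB. Damaged nuclear or mitochondrial DNA that reaches the cytosol can be sensed and can start interferon signalling, in which STAT proteins and IRF9 bind a DNA element called the ISRE in front of antiviral genes. CDK4 and CDK6 release E2F factors from the RB protein at the entry into S phase, whereas Aurora kinase A acts on the mitotic spindle. Both classes can therefore end in arrest, but they enter the cycle machinery at different points.

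The count table held 14493 genes, each with at least 1 read in every library, and the 12 libraries had totals of 30060164 to 43705589 counts. Genes without a read in some library are thus not analysed here, and neither are IFIT1, CXCL8 and IL6. Levels are given as CPM, the counts of a gene scaled to the normalised depth of its library, differences as log2 fold-change. ERBB2, the HER2 gene, lay at 5125 to 7042 CPM, and EPCAM and the keratin genes KRT7, KRT8, KRT18 and KRT19 were present in all 12 libraries. Of 16 defining markers of other cell types (immune cells, endothelium, fibroblasts and hepatocytes), 4 were in the table, and their summed level was 77.1 to 93.2 CPM with bleomycin, 55.7 to 65.7 with doxorubicin, 56.5 to 65.7 with palbociclib, 23.2 to 25.4 with alisertib and 21.2 to 23.9 in untreated day-7 cells. With bleomycin, most of that sum was CD68, a lysosomal protein also made outside macrophages, and CDH5, and the defining markers PTPRC, CD3E and CD14 were not analysed here. The part of these markers in the results below was not tested.

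The classes separated in the global profile. On the principal component that held 39.6% of the variance of log2 CPM, the 6 kinase inhibitor libraries scored 11.2 to 33.9 and the 6 DNA-damaging libraries -56.6 to -3.28, with no overlap. Within the DNA-damaging class, bleomycin scored -56.6 to -37.3 and doxorubicin -8.22 to -3.28, so doxorubicin lay between bleomycin and the kinase inhibitors. The next component, with 21.2% of the variance, set palbociclib (-35.8 to -27.9) apart from alisertib (21.3 to 30.9). Drugs of the same class thus also lay apart.

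**Figure D1:**
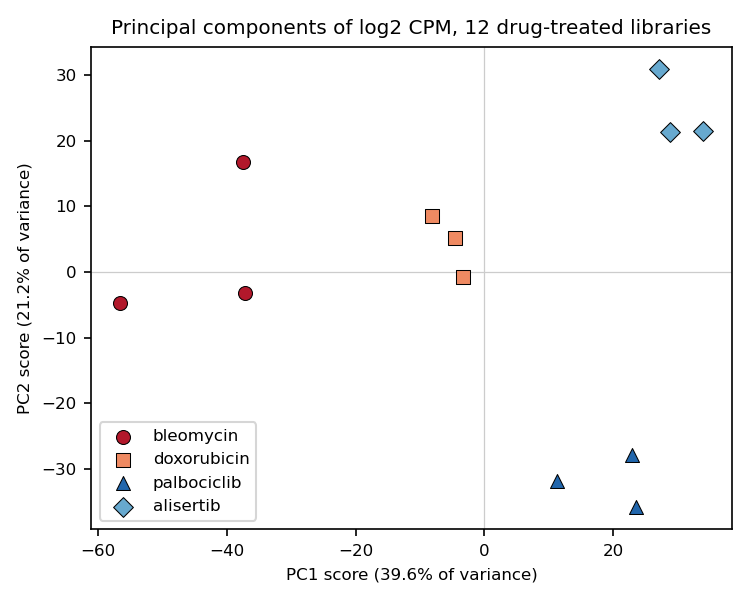
Principal component scores of the 12 drug-treated libraries, computed from log2 CPM; each point is a library and symbols mark the drug. PC1 (39.6% of the variance) separates the DNA-damaging drugs, left, from the kinase inhibitors, right, with doxorubicin between bleomycin and the kinase inhibitors. PC2 (21.2%) separates palbociclib, below 0, from alisertib, above 0.

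Of 14011 genes tested, 2882 (20.6%) were higher and 2703 (19.3%) lower with the DNA-damaging drugs as a class at an adjusted p below 0.05, 39.9% in all. Within a class, bleomycin and doxorubicin differed in 3153 genes (22.5%), palbociclib and alisertib in 3253 (23.2%). A gene was therefore called consistent only when it passed the test in the same direction in all 4 comparisons of a DNA-damaging drug with a kinase inhibitor. These comparisons alone called 5467 genes (39.0%) for bleomycin against palbociclib, 6123 (43.7%) for bleomycin against alisertib, 3014 (21.5%) for doxorubicin against palbociclib and 2692 (19.2%) for doxorubicin against alisertib. They share libraries pairwise and are not independent. All 4 conditions together left 436 genes (3.11%) higher and 261 genes (1.86%) lower with both DNA-damaging drugs. The higher set also held the larger differences: 111 genes (0.792%) were at least 2-fold higher in all 4 comparisons and 6 (0.0428%) at least 2-fold lower. The counts leaned on single libraries: without doxorubicin replicate 1 or 3 they fell to 271 or 283 higher and 123 or 132 lower, and without palbociclib replicate 3 or alisertib replicate 2 or 3 the lower set fell to 172, 127 or 129. Taking the replicate number as a block gave 661 higher and 459 lower. Among the consistent genes, 415 of those higher and 246 of those lower had no overlap between the 6 and the 6 libraries. Over all genes tested such separation was found in 10.7%. The consistent genes were chosen on these same libraries, so their separation largely follows from the choice and adds no support. Each class had only 2 drugs, so with the drug as the unit no exact test can go below p = 0.333, and these calls describe these 4 treatments at these doses. With the 4 drug means taken as 4 samples, no gene passed adjustment (limma), while 861 genes were higher and 641 lower at an unadjusted p below 0.05.

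Set against untreated day-7 cells, most consistent genes differed from untreated with both DNA-damaging drugs. At adjusted p below 0.05, bleomycin raised 26.6% and lowered 26.6% of 14035 genes, doxorubicin raised 20.5% and lowered 21.1%, palbociclib raised 21.7% and lowered 21.8%, and alisertib raised 7.35% and lowered 8.49%. The alisertib counts, 1031 and 1191 genes, were 509 and 606 without untreated day-7 replicate 3 and 515 and 507 without alisertib replicate 3. Of the 436 higher genes, 382 (87.6%) were above untreated with both bleomycin and doxorubicin. For 202 of these neither kinase inhibitor differed from untreated, and for 67 both kinase inhibitors were above it as well. In 10 genes the arrangement was the other one, with both kinase inhibitors below untreated and neither DNA-damaging drug different from it. Of the 261 lower genes, 171 (65.5%) were below untreated with both DNA-damaging drugs, and in 32 both kinase inhibitors were above untreated while neither DNA-damaging drug differed. Where a drug did not pass the test, this does not show that it left the gene alone. The same patterns were not counted over all genes. The consistent genes were chosen with these same drug libraries, and the drugs differed in the number of genes they called against untreated. These counts therefore describe the chosen genes only.

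Consistently higher genes without overlap between the 6 and the 6 libraries were ranked by their smallest difference over the 4 comparisons. Of the first 12 genes, 11 are described: KRT17, SAA1, S100A7, MRGPRE, CSF2RB, PARP9, BMP3, STEAP4, ACTA1, NKX1-2 and SAMD9. Their values here describe the choice and were not tested anew. KRT17 (chr17:39775694-39781094, GRCh37), a keratin of basal epithelium, had 4.403, 5.62 and 6.71 CPM with bleomycin, 8.67, 6.04 and 7.17 with doxorubicin, 1.16, 0.698 and 0.478 with palbociclib and 0.346, 1.34 and 0.982 with alisertib. All 6 DNA-damaging libraries were above all 6 kinase inhibitor libraries, which the choice required. The class log2 fold-change was 2.93 (SE 0.26, adjusted p = 3.12e-06). Keratin genes are alike in sequence and the counting rule for shared reads was not stated, so this level is uncertain.

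STEAP4 (chr7:87900207-87936209), a metalloreductase of iron and copper uptake, had 171, 166 and 211 CPM with bleomycin, 149, 128 and 174 with doxorubicin, 35.9, 39.02 and 38.3 with palbociclib and 20.2, 20.7 and 18.4 with alisertib. Its class log2 fold-change was 2.61 (SE 0.09, adjusted p = 5.92e-10).

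SAA1, an acute-phase protein, ranged from 5.96 to 14.1 CPM in the DNA-damaging class and from 0.409 to 1.47 in the kinase inhibitor class, with reads that the near-identical SAA2 could share. S100A7, a secreted calcium-binding protein of stressed epithelium, ranged from 2.19 to 9.88 against 0.189 to 0.508 CPM. CSF2RB, the common beta chain of the GM-CSF receptor, ranged from 0.855 to 1.95 against 0.145 to 0.44 CPM. The classes did not overlap in any of the 3 genes, which was a condition of the choice and not a separate result.

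BMP3, a secreted member of the TGF-beta family, showed another arrangement. It had 1.85, 1.53 and 1.65 CPM with bleomycin, 1.86, 0.969 and 1.27 with doxorubicin, 0.145, 0.222 and 0.419 with palbociclib, 0.503, 0.134 and 0.384 with alisertib and 0.463, 0.84 and 1.19 in untreated day-7 cells. Palbociclib was below untreated (log2 fold-change -1.61, adjusted p = 0.0124), while the doxorubicin difference of 0.77 did not pass the test. ACTA1, the actin of skeletal muscle, was above untreated in all 4 treatments, by 3.72 with bleomycin, 1.82 with palbociclib and 1.70 with alisertib, and most with doxorubicin. Its reads may be shared with other actins. MRGPRE, an orphan receptor, and the homeobox gene NKX1-2 had class log2 fold-changes of 2.66 and 2.18. The 12 genes ended with SAMD9 at a smallest difference of 1.83, and the next gene, TCHH, had 1.80. When at least 10 counts were required in every library, S100A7, CSF2RB and BMP3 fell below that limit and were not tested. Of the 24 leading genes of both directions, 21 were still consistent under it.

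**Figure D2:**
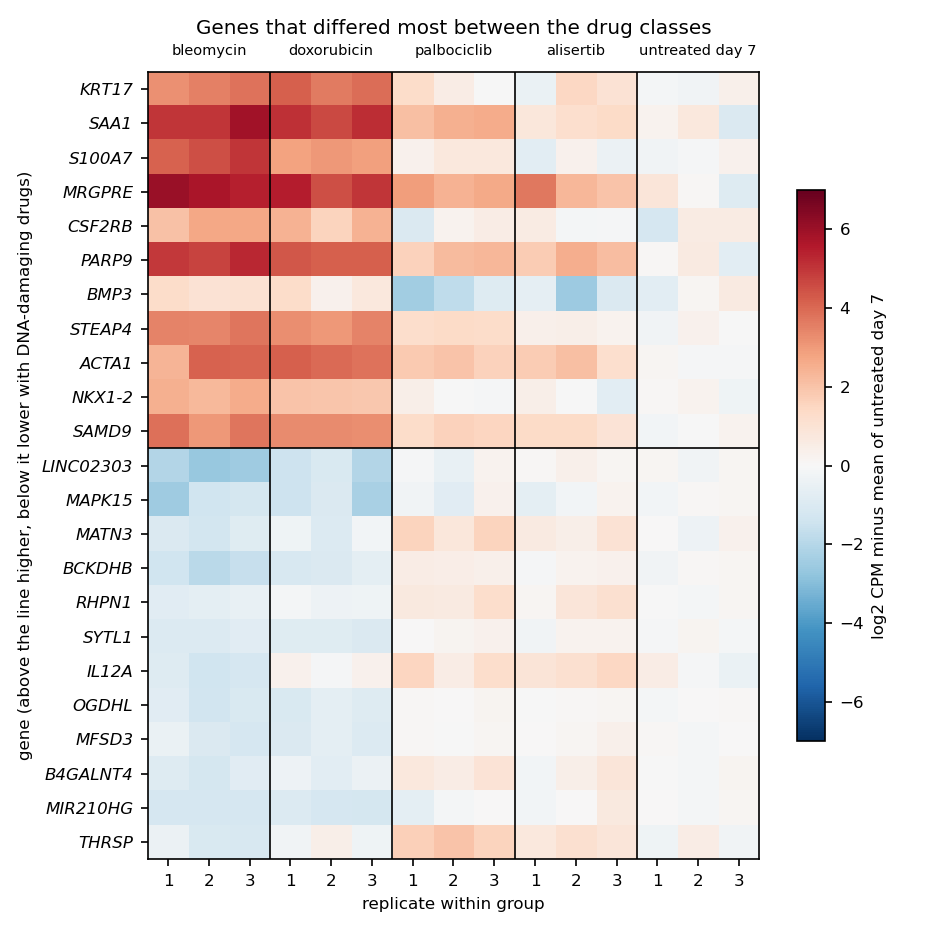
Log2 CPM minus the mean of untreated day-7 cells for 11 of the 12 genes with the largest consistent rise and the 12 with the largest consistent fall, per library (columns, 3 replicates a group). The upper 11 genes are red with bleomycin and doxorubicin and paler with the kinase inhibitors, except BMP3, which is blue with the kinase inhibitors; the lower 12 span a smaller range.

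Interferon-stimulated effector genes gave the highest share of consistent members. Of 24 tested (39 listed), 16 were consistently higher and none lower, against 3.11% of all genes, and the 24 had a median class log2 fold-change of 2.05 where the median of all genes was 0.00. All 24 were higher in the class comparison, against 20.6% of all genes. The 16 were IFIT5, MX1, OAS1, OAS2, OAS3, ISG15, IFI6, IFITM1, IFITM3, BST2, HERC6, SAMD9, PLSCR1, PARP9, PARP14 and DTX3L. Against untreated day-7 cells the list had median log2 fold-changes of 3.33 with bleomycin, 2.19 with doxorubicin, 0.31 with palbociclib and 0.73 with alisertib.

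The OAS genes encode synthetases that sense double-stranded RNA and activate RNase L. OAS2 had 51.5, 33.1 and 46.6 CPM with bleomycin, 11.2, 16.1 and 10.1 with doxorubicin, 1.04, 1.62 and 1.08 with palbociclib, 4.15, 6.15 and 4.04 with alisertib and 0.529, 1.04 and 1.19 in untreated day-7 cells. The 4 treatments formed separate levels (43.7 ± 9.51, 12.5 ± 3.23, 1.25 ± 0.323 and 4.78 ± 1.19 CPM in that order; mean ± SD, n = 3), with bleomycin above doxorubicin by 1.81 (adjusted p = 0.000357) and alisertib above palbociclib (palbociclib minus alisertib -1.93, adjusted p = 0.000247). The class log2 fold-change was 3.27 (SE 0.18, adjusted p = 3.03e-08).

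OAS3 had 132, 77.8 and 122 CPM with bleomycin, 59.2, 63.5 and 59.7 with doxorubicin, 7.33, 6.604 and 6.49 with palbociclib, 26.6, 24.7 and 24.4 with alisertib and 14.7, 16.2 and 15.5 in untreated day-7 cells. Palbociclib was thus below untreated (-1.17, adjusted p = 1.71e-05) and alisertib above it (0.70, adjusted p = 0.00433). IFI6, an inhibitor of apoptosis and viral replication, was arranged alike, with 95.2, 71.7 and 81.3 CPM with bleomycin, 34.1, 28.8 and 26.8 with doxorubicin, 2.96, 3.43 and 3.05 with palbociclib, 11.8, 16.7 and 15.8 with alisertib and 4.78, 7.44 and 5.22 in untreated cells. ISG15, a ubiquitin-like protein that is joined to other proteins, ranged from 6.14 to 17.9 CPM in the DNA-damaging class and from 1.35 to 3.36 in the kinase inhibitor class, and MX1, an antiviral GTPase, from 2.24 to 15.02 and 0.667 to 1.98.

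A further group encodes ADP-ribosylation proteins. PARP9 (chr3:122246771-122283424) and its ubiquitin ligase partner DTX3L (chr3:122283185-122294050) lie head to head and overlap at their starts on GRCh37, and whether reads were assigned by strand was not stated. PARP9 had 10.8, 9.17 and 13.6 CPM with bleomycin, 7.18, 6.24 and 6.26 with doxorubicin, 1.07, 1.62 and 1.76 with palbociclib and 1.19, 2.01 and 1.58 with alisertib. DTX3L had 45.9, 46.1 and 56.4 CPM with bleomycin, 27.7, 28.9 and 31.4 with doxorubicin, 12.1, 13.4 and 11.2 with palbociclib and 8.36, 7.89 and 6.88 with alisertib. PARP14, of the same family, ranged from 8.65 to 32.6 against 1.45 to 3.84 CPM. For PARP9, PARP14, DTX3L, HERC6 and SAMD9 both kinase inhibitors also exceeded untreated day-7 cells, by 1.15 to 2.66 on the log2 scale. The interferon list was graded in the DNA-damaging class too, as 20 of 24 members were higher with bleomycin than with doxorubicin and none lower, against 11.7% higher over all genes.

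The ISRE core, GAAA repeated after any 2 bases (either strand), was found within 250 bases before a start site of 12 of 15 consistent interferon effectors that had a promoter in RefSeq (80%), against 3.24% of 10757 tested genes and 8.51% of the 329 consistently higher genes with a promoter. Among all tested interferon effectors with a promoter, consistent or not, it was in 15 of 19 (78.9%). A match is a description of the letters and not a bound site. A gene counts here if any of its listed start sites has a match. To show the element in its place, the upstream sequence (RefSeq, GRCh38.p14) is given for 5 of these genes and for the peptide transporter gene TAP1 described below, 5′ to 3′ on the strand of the gene. The ISRE core nearest the start site is in capitals. The windows of ISG15, IFITM3 and TAP1 also hold a further core, left in lower case.
ISG15: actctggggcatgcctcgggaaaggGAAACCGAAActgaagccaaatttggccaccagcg
IFITM3: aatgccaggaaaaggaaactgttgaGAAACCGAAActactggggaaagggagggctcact
OAS3: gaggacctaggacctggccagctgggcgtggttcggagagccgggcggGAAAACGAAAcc
SAMD9: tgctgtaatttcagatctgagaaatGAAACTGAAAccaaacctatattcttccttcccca
PARP14: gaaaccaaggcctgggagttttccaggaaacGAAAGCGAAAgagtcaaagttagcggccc
TAP1: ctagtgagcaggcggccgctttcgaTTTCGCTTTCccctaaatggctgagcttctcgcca
The windows lie at chr1:1013365-1013424 on the plus strand for ISG15, chr11:320861-320920 on the minus strand for IFITM3, chr12:112938414-112938473 on the plus strand for OAS3, chr7:93118081-93118140 on the minus strand for SAMD9, chr3:122680779-122680838 on the plus strand for PARP14 and chr6:32853798-32853857 on the minus strand for TAP1. The capitalised matches began 107, 35, 12, 136, 29 and 128 bases before the start site in that order. In TAP1 the capitalised match is on the opposite strand and therefore reads in reverse complement.

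**Figure D3:**
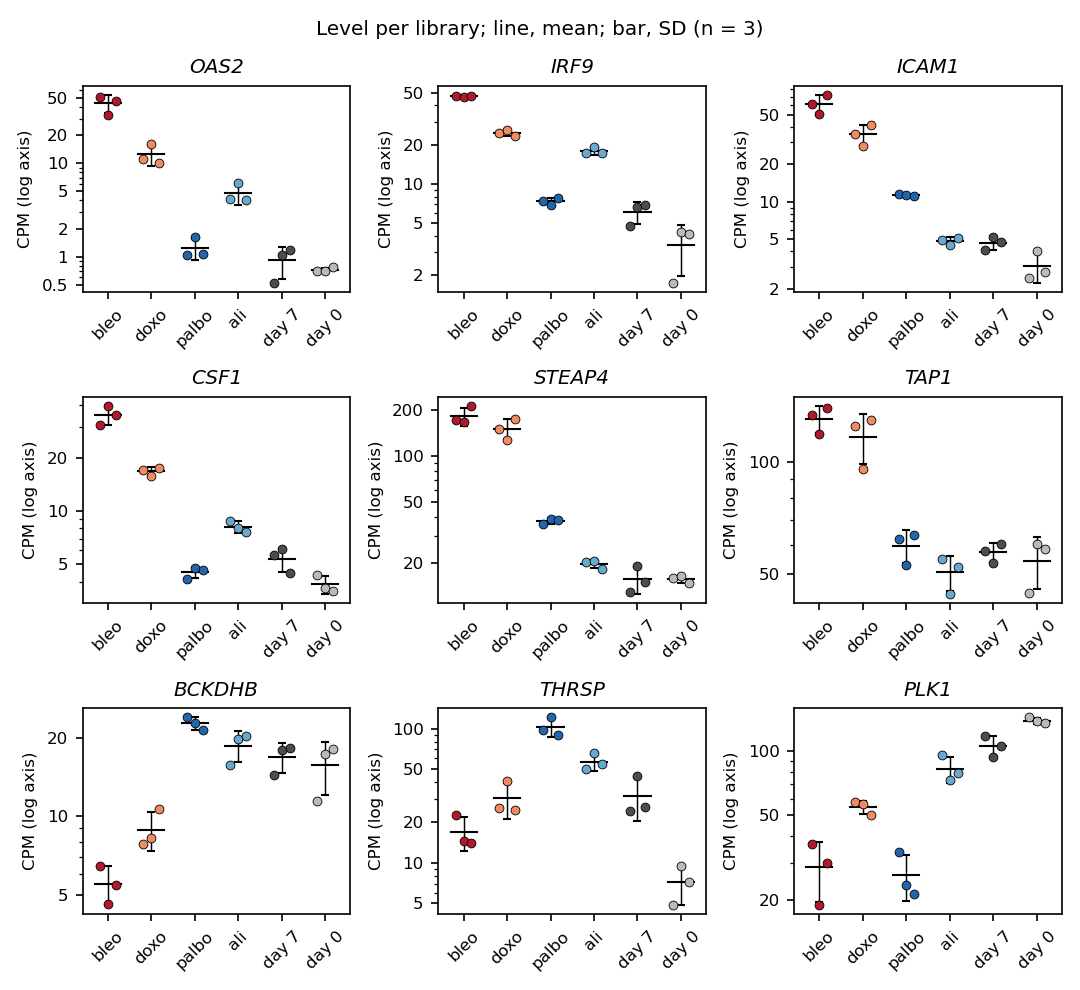
CPM of 9 genes in each library (points, log axes) with the mean and SD of 3 replicates, for bleomycin, doxorubicin, palbociclib, alisertib and untreated cells of day 7 and day 0. OAS2, IRF9, ICAM1, CSF1, STEAP4 and TAP1 are higher in all 6 DNA-damaging libraries than in all 6 kinase inhibitor libraries. BCKDHB and THRSP are higher with the kinase inhibitors, and PLK1 is low with bleomycin and palbociclib. For STEAP4, BCKDHB and THRSP, no overlap between the classes was a condition of the choice.

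Genes that carry the interferon signal and sense nucleic acids moved less than the effectors. Of 28 tested (32 listed), 11 were consistently higher and none lower, with a median class log2 fold-change of 0.43. Without doxorubicin replicate 1 or 3, 6 or 7 were consistent. IRF9, the DNA-binding subunit of the complex that binds the ISRE, had 47.3, 45.96 and 47.3 CPM with bleomycin, 24.6, 25.8 and 23.4 with doxorubicin, 7.45, 6.92 and 7.77 with palbociclib, 17.2, 19.3 and 17.3 with alisertib and 4.74, 6.66 and 6.95 in untreated day-7 cells. The levels separated every pair of drugs, and the class log2 fold-change was 1.57 (SE 0.06, adjusted p = 2.31e-09).

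IRF7, which drives type I interferon genes, had 23.7, 27.7 and 20.9 CPM with bleomycin, 11.6, 12.8 and 10.1 with doxorubicin, 3.82, 1.59 and 2.87 with palbociclib, 5.63, 7.304 and 6.13 with alisertib and 5.93, 3.56 and 4.87 in untreated day-7 cells. IRF1, also an activator of immune genes, had 39.7, 56.2 and 47.6 CPM with bleomycin, 36.1, 29.6 and 33.2 with doxorubicin, 24.9, 20.6 and 20.2 with palbociclib, 15.02, 10.6 and 11.2 with alisertib and 6.77, 7.27 and 6.89 in untreated cells. The kinase inhibitors thus differed in opposite order for the IRF genes: palbociclib minus alisertib was -1.18 for IRF7 (adjusted p = 0.00296) and 0.86 for IRF1 (adjusted p = 0.00138). The RNA sensors DDX58 (RIG-I) and DHX58 had class log2 fold-changes of 1.14 and 1.17, and STING1, which relays the cytosolic DNA signal, one of 0.92 from 4.85 to 6.64 against 2.11 to 3.71 CPM. The receptor chains IFNAR1 and IFNAR2 differed by 0.36 and 0.37. IFNAR2 was lowered by palbociclib (-0.29 against untreated, adjusted p = 0.0139), with 0.11 for bleomycin and 0.14 for doxorubicin, neither of which passed. EIF2AK2, STAT3 and SAMHD1 completed the 11, with class differences of 0.53, 0.50 and 1.13.

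In the MHC class I pathway, which displays peptides of the cell's own proteins to T cells, 5 of 18 tested genes were consistently higher and none lower (median 0.86). They were the peptide transporter gene TAP1, the immunoproteasome genes PSMB8 and PSMB9, the proteasome activator PSME2 and the transactivator NLRC5. TAP1 had 134, 119 and 139.7 CPM with bleomycin, 125, 96.1 and 130 with doxorubicin, 62.2, 52.9 and 63.96 with palbociclib, 55.04, 44.4 and 52.3 with alisertib and 57.9, 53.5 and 60.3 in untreated day-7 cells. Neither kinase inhibitor differed detectably from untreated for TAP1 (0.07 and -0.18), while bleomycin and doxorubicin were above it by 1.21 and 1.05. PSMB8 had 29.6, 39.99 and 39.2 CPM with bleomycin, 19.6, 22.8 and 19.9 with doxorubicin, 10.4, 12.1 and 9.39 with palbociclib and 4.59, 6.31 and 5.91 with alisertib. The list as a whole put palbociclib above alisertib in 10 of 18 genes (11.7% of all genes) and below it in none (11.5%). Bleomycin was higher than palbociclib in 14 and than alisertib in 16 of the 18, against 19.8% and 22.6% of all genes. Doxorubicin was higher than palbociclib in 5 and than alisertib in 14, against 11.4% and 11.1%.

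NF-kB subunits, inhibitors and targets followed the class in 12 of 24 tested genes, all higher (median class log2 fold-change 0.51), and in 6 when all 24 libraries were fitted together. The subunits were NFKB2 and RELB of the non-canonical branch, with class differences of 0.46 and 0.84. The inhibitors NFKBIA, NFKBIE, TNFAIP3, TNIP1 and CYLD, which NF-kB itself induces in part, differed by 0.83, 0.79, 1.42, 0.66 and 0.40. TNFAIP3, which removes ubiquitin chains upstream of NF-kB, had 20.6, 16.6 and 28.4 CPM with bleomycin, 18.7, 13.3 and 18.6 with doxorubicin, 7.59, 6.29 and 9.72 with palbociclib and 7.64, 5.46 and 6.94 with alisertib. NFKBIA, which holds NF-kB in the cytosol, ranged from 89.8 to 138 CPM against 43.8 to 77.04, with untreated day-7 cells at 59.2 to 82.02, and palbociclib below untreated (-0.42, adjusted p = 0.0289).

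ICAM1, an adhesion molecule for leukocytes, gave the largest class difference of the list, 2.64 (SE 0.11, adjusted p = 2.31e-09). It had 60.5, 50.4 and 71.6 CPM with bleomycin, 34.8, 28.1 and 41.4 with doxorubicin, 11.6, 11.4 and 11.1 with palbociclib, 4.97, 4.49 and 5.12 with alisertib and 4.101, 5.27 and 4.72 in untreated day-7 cells. BIRC3, an inhibitor of cell death, had 25.6, 37.4 and 34.1 CPM with bleomycin, 19.3, 16.99 and 22.8 with doxorubicin, 6.2, 6.604 and 7.86 with palbociclib and 6.07, 6.47 and 5.64 with alisertib, against 3.26, 4.14 and 3.44 in untreated cells. All 4 drugs exceeded untreated for BIRC3, and the DNA-damaging drugs did so by more. CFLAR, TNFAIP2 and the autophagy receptor SQSTM1 differed by 0.41, 1.09 and 0.82.

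The NF-kB consensus (either strand, 250 bases before a start site) was found in 7 of 10 of these consistent genes with a promoter (70%), against 15.2% of all 10757 tested genes with a promoter and 20.1% of the consistently higher ones, and in 12 of the 21 tested NF-kB list genes with a promoter, consistent or not (57.1%). No ISRE core was found in those 10 windows, and of the 15 consistent interferon effectors 4 (26.7%) held the NF-kB consensus. For 4 inhibitors or targets the upstream windows of GRCh38.p14 are given in the same way, with the NF-kB match nearest the start site in capitals. The TNFAIP3 window also holds a further match, left in lower case.
NFKBIA: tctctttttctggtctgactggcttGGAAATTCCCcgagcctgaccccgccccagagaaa
TNFAIP3: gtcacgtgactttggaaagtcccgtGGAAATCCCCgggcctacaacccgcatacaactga
TNIP1: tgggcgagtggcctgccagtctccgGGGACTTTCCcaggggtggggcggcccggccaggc
BIRC3: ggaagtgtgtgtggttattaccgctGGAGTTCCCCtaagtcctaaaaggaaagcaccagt
These lie at chr14:35404796-35404855 on the minus strand for NFKBIA, chr6:137867179-137867238 on the plus strand for TNFAIP3, chr5:151081042-151081101 on the minus strand for TNIP1 and chr11:102317324-102317383 on the plus strand for BIRC3. The capitalised matches began 81, 55, 42 and 135 bases before the start site, and all but that of TNIP1 are on the opposite strand.

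Chemokines, cytokines and growth factors that arrested cells can secrete were tested in 17 of 37 listed genes. Of these, 7 were consistently higher and none lower (median class log2 fold-change 1.21): CXCL16, CCL2, IL32, TNF, CSF1, HBEGF and SAA1. With the replicate number as a block, 11 were consistent. CSF1, the growth factor of macrophages, had 30.9, 39.3 and 35.1 CPM with bleomycin, 17.2, 15.9 and 17.6 with doxorubicin, 4.14, 4.79 and 4.63 with palbociclib, 8.83, 8.05 and 7.602 with alisertib and 5.62, 6.08 and 4.45 in untreated day-7 cells. Its class log2 fold-change was 2.01 (SE 0.08, adjusted p = 2.31e-09), and bleomycin exceeded doxorubicin by 1.05 (adjusted p = 0.000211). CCL2, which attracts monocytes, had 10.7, 9.74 and 24.8 CPM with bleomycin and 23, 12.5 and 20.9 with doxorubicin, against 7.97, 4.95 and 5.98 with palbociclib and 5.25, 3.08 and 3.57 with alisertib. Here doxorubicin was as high as bleomycin within the spread (-0.32, adjusted p = 0.516). TNF itself ranged from 2.57 to 7.04 CPM against 0.749 to 1.56, and HBEGF, a ligand of EGFR, from 6.35 to 10.5 against 2.602 to 4.65. EGFR was the only consistent member among 26 luminal and epithelial genes, near the 3.11% of all genes that were consistently higher. It had 236, 256 and 256 CPM with bleomycin, 222, 196 and 263 with doxorubicin, 165, 156 and 188 with palbociclib and 126, 99.2 and 121 with alisertib. The EGFR call was lost without doxorubicin replicate 1. GDF15, a stress cytokine, rose against untreated in all 4 treatments, by 3.81, 2.85, 2.29 and 2.28, and was higher as a class with DNA damage by 1.04 (SE 0.19, adjusted p = 0.00087) without passing all 4 comparisons.

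Histone genes gave 5 consistently higher members of 22 tested (median 0.69), among them the linker histones H1-2 and H1-3, the variant H3-3B and H4C14. Without palbociclib replicate 2 or 3 or doxorubicin replicate 1, 3 were consistent. H1-2 had 100.4, 136 and 95.8 CPM with bleomycin, 105, 82.03 and 79.6 with doxorubicin, 55.9, 48.3 and 44.4 with palbociclib, 31.9, 26.4 and 23.5 with alisertib and 31.8, 25.3 and 30.2 in untreated cells. Histone genes of a cluster are near copies of each other, so single-gene levels are uncertain, and transcripts without a poly(A) tail are measured only in part by mRNA selection; the labels name an mRNA kit and the methods a total RNA kit.

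Other lists followed the class in few members. Of 31 lysosomal and autophagy genes, the protease gene CTSS, the vesicle protein CD63 and the cholesterol exporter NPC1 were consistently higher, by 2.77, 0.44 and 0.67. CTSS had 7.36, 11.02 and 15.6 CPM with bleomycin, 6.46, 5.65 and 10.4 with doxorubicin, 2.11, 3.302 and 3.41 with palbociclib and 0.66, 0.455 and 0.747 with alisertib, and palbociclib also raised it against untreated (2.35). In the integrated stress response, 2 of 21 genes were consistent, PPP1R15A (1.09), which restores translation, and the amino acid transporter subunit SLC3A2 (0.49), and 1 of them without any single alisertib library or without doxorubicin replicate 1 or 3. Of this list, 16 genes were higher with bleomycin than with doxorubicin, against 11.7% of all genes. MAP1B was the consistent gene among 15 tubulins and microtubule regulators (1.58). No gene was consistent among 26 p53 targets, 24 genes of cholesterol synthesis, 32 of ribosome biogenesis and 18 of the nuclear envelope and senescent chromatin. Over all genes tested 4.97% were consistent, so 0 or 1 member of lists this short is near that share and says little about them. With the replicate number as a block, the p53, cholesterol and nuclear envelope lists each had 1 consistent gene, as did the cholesterol and nuclear envelope lists without bleomycin replicate 1 and the nuclear envelope list without alisertib replicate 1.

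**Figure D4:**
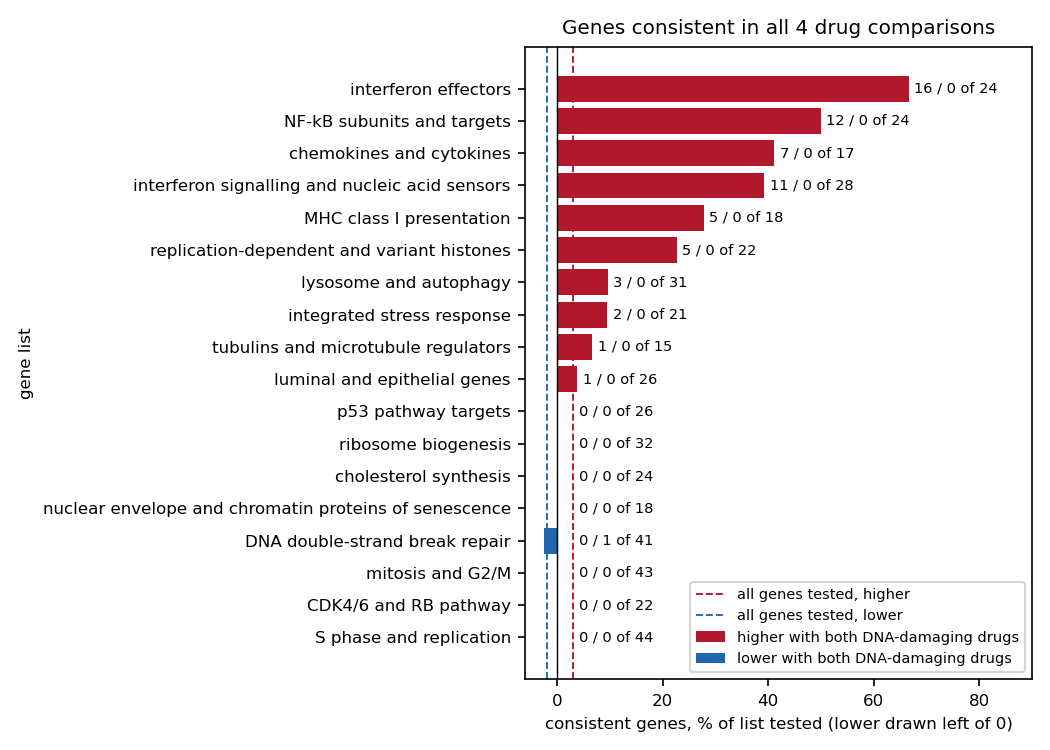
Share of each gene list (bars, % of genes tested) that was consistently higher (red, right of 0) or lower (blue, left of 0) with both DNA-damaging drugs in all 4 drug comparisons; numbers give higher / lower of tested. Dashed lines mark all genes, 3.11% higher and 1.86% lower; the interferon effectors reach 16 of 24, the NF-kB list 12 of 24, and the S-phase and mitosis lists 0 of 44 and 0 of 43.

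The genes lower with DNA damage spanned smaller differences. The 12 leading ones, again chosen among genes without overlap between the classes, were LINC02303, MAPK15, MATN3, BCKDHB, RHPN1, SYTL1, IL12A, OGDHL, MFSD3, B4GALNT4, MIR210HG and THRSP. They ended with THRSP at 0.88 and were followed by MLXIPL at 0.87. BCKDHB (chr6:80816364-81055987), a subunit of the branched-chain ketoacid dehydrogenase, had 6.45, 4.599 and 5.46 CPM with bleomycin, 7.83, 8.24 and 10.6 with doxorubicin, 24.1, 22.8 and 21.6 with palbociclib, 15.8, 19.9 and 20.5 with alisertib and 14.4, 17.98 and 18.4 in untreated day-7 cells. Its class log2 fold-change was -1.56 (SE 0.11, adjusted p = 3.71e-07). OGDHL, a homologue of the oxoglutarate dehydrogenase, had 20.9, 14.4 and 17.7 CPM with bleomycin and 17.4, 22.5 and 19.8 with doxorubicin, and lay between 35.7 to 41.4 with the kinase inhibitors and between 33.4 to 39.4 in untreated cells.

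THRSP (chr11:77774907-77779397), a regulator of lipid synthesis, had 22.6, 14.5 and 14.1 CPM with bleomycin, 25.5, 41 and 24.7 with doxorubicin, 98.3, 121 and 89.1 with palbociclib, 50.01, 65.4 and 54.3 with alisertib and 24.3, 44.3 and 26.1 in untreated day-7 cells. Here the difference lay on the side of the kinase inhibitors, which exceeded untreated by 1.72 and 0.84, while doxorubicin stood at -0.04. IL12A, a subunit of interleukin-12 and of other cytokines, and the gene RHPN1 were also above untreated with both kinase inhibitors (1.07 and 1.12 for IL12A, 0.88 and 0.75 for RHPN1). SYTL1, an effector in vesicle traffic, was instead lowered to 9.92 to 11.7 CPM by the DNA-damaging drugs from 18.8 to 22.9 in untreated cells, with 16.97 to 25.3 under the kinase inhibitors.

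MATN3, an extracellular matrix protein, was raised by palbociclib (1.36) and lowered by bleomycin (-1.03). The long non-coding RNAs LINC02303 and MIR210HG, the latter the host transcript of a hypoxia-induced microRNA, ranged from 0.351 to 1.05 against 1.56 to 2.81 and from 0.605 to 0.722 against 0.898 to 2.33 CPM. The kinase gene MAPK15, the transporter gene MFSD3 and the glycosyltransferase gene B4GALNT4 had class differences of -1.37, -0.98 and -1.32. In the list of double-strand break repair, CHEK2, a checkpoint kinase activated by DNA breaks, was the consistent member of 41 (lower, -0.67). This is near the 1.86% of all genes that were consistently lower. CHEK2 had 23.8, 16.5 and 21.1 CPM with bleomycin, 27.4, 28.1 and 29.2 with doxorubicin, 40.6, 40.1 and 37.6 with palbociclib and 36.96, 37.4 and 38.97 with alisertib. This call was lost without alisertib replicate 2 or 3 or doxorubicin replicate 1.

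Cell-cycle genes were not consistent over the 4 drug comparisons. None of 44 S-phase genes and none of 43 mitotic genes was consistent, against 4.97% of all genes tested. In the class comparison 2 S-phase genes were higher and 19 lower, and 1 mitotic gene higher and 11 lower, where 20.6% of all genes were higher and 19.3% lower. The S-phase genes thus leaned to lower levels with the DNA-damaging class, but the drugs within each class were far apart. Against untreated day-7 cells the median of the S-phase genes fell by 1.28 with bleomycin and by 1.03 with palbociclib, but by 0.56 with doxorubicin and by 0.26 with alisertib. The mitotic genes fell by 1.38 and 1.31 at the median with bleomycin and palbociclib, and by 0.49 and 0.30 with doxorubicin and alisertib. Within the classes, 39 of 44 S-phase genes were lower with bleomycin than with doxorubicin (10.8% of all genes) and 40 of 44 lower with palbociclib than with alisertib (11.5% of all genes), with none higher.

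Across the classes the sign depended on the pair. In 25 of 44 S-phase genes doxorubicin was higher than palbociclib (11.4% of all genes) and in 43 of 44 bleomycin was lower than alisertib (21.1% of all genes). Doxorubicin was lower than alisertib in 9 of 44, against 8.08% of all genes. PLK1, a mitotic kinase, had 36.8, 19.1 and 30 CPM with bleomycin, 57.8, 56.3 and 50.5 with doxorubicin, 33.5, 23.6 and 21.4 with palbociclib, 95.8, 73.7 and 78.9 with alisertib and 118, 94.3 and 106 in untreated day-7 cells. Its class difference of -0.22 did not pass (adjusted p = 0.232), although palbociclib and alisertib differed by -1.64 (SE 0.21, adjusted p = 9.59e-05). LMNB1, a lamin whose loss marks senescent nuclei, had 21.5, 10.5 and 19.9 CPM with bleomycin, 39.8, 46.6 and 44.1 with doxorubicin, 23.7, 15.05 and 19.1 with palbociclib and 56.7, 50.2 and 57.3 with alisertib, against 80.03, 66.5 and 79.9 in untreated cells. The higher levels were again those of doxorubicin and alisertib.

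The targets of the drugs were not consistent either. AURKA, the target of alisertib, had 191, 150.4 and 147 CPM with that drug and 176, 154 and 164 in untreated day-7 cells, and was lower with bleomycin (-1.11, adjusted p = 0.000116) and palbociclib (-1.09, adjusted p = 0.000204). TOP2A, a target of doxorubicin, lay at 556, 529 and 615 CPM with that drug, a difference of -0.44 from untreated that did not pass, and was lowered most by palbociclib (-1.50). CDK6 and its partner CCND1 were highest with palbociclib, at 86.7, 95.9 and 102 and 437, 496 and 399 CPM, and exceeded alisertib by 0.82 and 0.78 on the log2 scale. CDK4 was lower with both DNA-damaging drugs as a class (-0.24 (SE 0.06, adjusted p = 0.00438)) but below untreated in all 4 treatments. CDKN1A, the p53-induced CDK inhibitor p21, rose with bleomycin (1.57), palbociclib (1.13) and doxorubicin (0.71), whereas alisertib stood at -0.10. It had 33.7, 31.6 and 39 CPM with bleomycin, 20.8, 19.2 and 17.4 with doxorubicin, 26.5, 26.3 and 24.4 with palbociclib and 10.97, 12.9 and 9.42 with alisertib, so palbociclib lay within the range of the DNA-damaging class.

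CCNE1, which activates CDK2, was lower as a class with DNA damage (-0.64 (SE 0.09, adjusted p = 0.000151)) and did not overlap between the classes, at 9.74 to 20.3 CPM against 22.9 to 26.3. CCNE2, AURKB, E2F1 and RB1 did not differ detectably by class, with log2 fold-changes of -0.37, -0.01, -0.28 and 0.06.

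The share of counts from the 15 mRNA and rRNA genes of the mitochondrial genome also differed by class. It was 7.62% to 11.7% with bleomycin, 4.51% to 6.29% with doxorubicin, 2.06% to 3.85% with palbociclib, 2.49% to 4.24% with alisertib and 1.41% to 3.28% in untreated day-7 cells. In untreated day-0 cells it was 8.73%, 1.36% and 1.69% in replicates 1, 2 and 3. The share thus also varied widely between replicates of 1 untreated group, and 1 of these libraries lay above all doxorubicin libraries. All 15 were higher as a class, by 0.90 to 1.47. Of them 3 (20%), ND4L, ND5 and ND6, were consistent in all 4 comparisons, against 3.11% of all genes. The tRNA genes of the mitochondrial genome were not among the 15. ND5, a subunit of respiratory complex I, had 6176, 4957 and 3846 CPM with bleomycin, 3867, 3372 and 2692 with doxorubicin, 2005, 1213 and 2361 with palbociclib and 2423, 1239 and 1613 with alisertib. These genes were picked after their values were seen. When 37 genes of the mitochondrial genome, tRNA genes included, were left out of the fit, 426 genes were consistently higher and 256 lower. A part of this share in the other results was not tested further. In bulk RNA, a changed share of cells and a changed level per cell cannot be told apart.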

How the data were processed

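The authors deposited read counts per gene for 24 SKBR3 libraries (mRNA-seq; HISAT2 and StringTie on GRCh37, per the submitters' notes and the study's methods); how shared reads and strand were handled is not given in the sources used here. Columns matched 24 samples by title. Counts were tested with edgeR 4.0.16 (R 4.3.3; filterByExpr, TMM, quasi-likelihood, Benjamini-Hochberg), with 1 coefficient per drug over 12 libraries and the class difference as the difference of class means; a fit of 15 libraries added untreated day-7 cells. CPM used TMM factors over 24 libraries. Consistent genes had an adjusted p below 0.05 and the same sign in all 4 comparisons; the text names the 12 in each direction with the largest smallest difference and no overlap, the consistent members of the 19 gene lists, and the drug targets and cycle genes, apart from a few that are not reported here. Members and lists were chosen with earlier results of these data known, and 3 symbols were set to those of the table. Promoter sequence came from RefSeq (GRCh38.p14), positions from GENCODE on GRCh37. Alternatives were DESeq2 1.42.0, RLE size factors, other filters, a fit of all libraries, a replicate block, fold limits, day-0 reference, limma 3.58.1 on drug means, leaving out each library and, chosen after seeing the data, leaving out mitochondrial genes. The labels number the replicates without naming pairs, and numbers were not taken as pairs in the main fit. Same-numbered libraries correlated over 0.1 in 15 of 18 pairs (-0.06 to 0.36), with all 3 numbers over 0.1 in 4 of 6 drug pairs. The main fit thus leaves out a possible shared effect of the number. With the replicate block, 1120 genes were consistent, among them all 697 of the main fit. The script was tested on simulated data. Precision is limited by 3 libraries a group; no library pair agreed within sampling noise.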

Additional observations from a re-analysis of the deposited data

Results flagged for a closer look

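OAS3 and IFI6, antiviral genes of the interferon list, moved in opposite directions with palbociclib and alisertib, and the drugs differed from each other in the test of that difference. For OAS3, the log2 fold-change against untreated day-7 cells was -1.17 with palbociclib and 0.70 with alisertib, and palbociclib minus alisertib was -1.87 (SE 0.16, adjusted p = 5.39e-06, edgeR). For IFI6 the values were -0.87 with palbociclib and 1.35 with alisertib, a difference of -2.22 (SE 0.16, adjusted p = 1.83e-06). All 3 palbociclib libraries of both genes lay below all 3 alisertib libraries.

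Cells given ND-646 or TVB-3166, which enter no comparison above, carried the genes that were consistently higher with DNA-damaging drugs at a level above untreated day-7 cells. The median log2 CPM of the 436 genes minus their mean in untreated day-7 cells was 0.56 ± 0.05 with ND-646 and 0.38 ± 0.02 with TVB-3166 (mean ± SD, n = 3), whereas the 3 untreated day-7 libraries lay between -0.02 and 0.05. The 261 consistently lower genes stood at -0.27 ± 0.04 with ND-646 and -0.06 ± 0.03 with TVB-3166. For these 261 genes the untreated day-7 libraries lay between -0.03 and 0.02. Untreated day-0 cells stood at -0.14 ± 0.09 for the 261 genes, lower than TVB-3166, and at 0.05 ± 0.06 for the 436. The same medians over all genes were not computed. Beside this, the mitochondrial share was 5.86% to 7.13% with ND-646 and 4.10% to 5.56% with TVB-3166. It was 1.41% to 3.28% in untreated day-7 cells and 8.73%, 1.36% and 1.69% in the untreated day-0 libraries. The summed markers of other cell types were 64.3 to 73.8 CPM with ND-646 and 42.4 to 51.2 with TVB-3166, against 21.2 to 23.9 in untreated day-7 cells. The part of the share and of these markers was not tested. For comparison, the median of the 436 genes was 1.02 with bleomycin, 0.80 with doxorubicin, 0.13 with palbociclib and 0.11 with alisertib; the last 4 values follow from the choice of the genes. Groups of 3 libraries were too small for a search for single outlying libraries.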

How the results depend on the processing

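Among the results that answer a comparison, 653 values under an alternative were labelled the same and 51 moved. Counts were labelled the same within a set fold limit, and list medians within the spread between replicates. The 261 consistently lower genes became 182 with all 24 libraries in 1 fit and 362 with DESeq2, and both were labelled the same. No called value turned its direction, while the medians of the tubulin and the luminal list, near 0, crossed it when 1 library was left out. The cause was not tested unless the alternative itself gives it (fewer libraries, stricter limits). With all 24 libraries in 1 fit, 277 genes were consistently higher, and alisertib raised 615 and lowered 526 genes against day 7; 449 of the 697 consistent genes were shared. The replicate block gave 661 higher and 459 lower (all 697 kept their direction) and 1580 and 1837 genes for alisertib; consistent cytokine genes rose from 7 to 11, the tubulin and luminal lists from 1 to 2 and the p53, cholesterol and nuclear envelope lists from 0 to 1, and CCNE2 passed the class test; no other call or count moved that far. Requiring a 2-fold difference and an adjusted p left 111 and 6 consistent genes, and a 2-fold difference with an unadjusted p left 124 and 12. The latter rule gave 466 higher and 147 lower for the classes, 259 and 300 for bleomycin against doxorubicin, 420 and 417 for palbociclib against alisertib, and, against day 7, 1218 and 787 for bleomycin, 986 and 250 for doxorubicin, 943 and 648 for palbociclib and 357 and 108 for alisertib. Against day 0, alisertib gave 2555 and 2770. Drug means as 4 samples gave 0 and 0. DESeq2 called 840 consistent genes (689 shared), RLE size factors 694 (672 shared) and no filter 687 (668 shared).

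Leaving out 1 library gave 271 to 481 consistent genes higher and 123 to 320 lower, 869 to 1733 and 799 to 1682 for bleomycin against doxorubicin (lowest without doxorubicin replicate 3; 976 and 814 without bleomycin replicate 2, 941 and 863 without doxorubicin replicate 1), and 1117 to 1865 and 1090 to 1881 for palbociclib against alisertib. Alisertib against day 7 gave 509 to 1241 and 507 to 1395 (652 and 743 without untreated day-7 replicate 1, 635 and 689 without alisertib replicate 2). The nuclear envelope list had a median of -0.0881 to -0.0181. Of the 24 leading genes, 20 to 24 remained consistent. Depth, 30060164 counts or more a library, limits the genes near 1 CPM most.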
